A study of Mus musculus with 6 samples.

Results

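The enzymes that rebuild nicotinamide adenine dinucleotide (NAD) from nicotinamide, the sirtuins that consume it, and the sirtuin substrate PGC-1 alpha were followed through 1 day in islets of the mouse pancreas, its hormone-secreting cell clusters. The 8 genes were Nampt, Nmnat1, Nmnat3, Sirt1, Sirt2, Sirt3, Sirt6 and Ppargc1a, out of 24147 genes tested. They were listed by name, with earlier results of these data known, and taken as every probe designed to one of their RefSeq transcripts. This gave 10 probes of 39429, with 2 each for Sirt6 and Ppargc1a and 1 each for the others.

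Islets came from male C57BL6 mice aged 8 weeks on rodent chow, with 12 h of light and 12 h of dark, collected at zeitgeber times (ZT) 0, 4, 8, 12, 16 and 20 h, where lights went on at ZT0 and off at ZT12. RNA of 3 to 5 mice was pooled per time, and each pool was hybridised with Cy3 to 1 Agilent array. All groups shared strain, sex, age and diet, and no group was a mutant or treated with a drug. With 1 array per time no spread between mice or pools was measured, so no 2 time points could be tested against each other.

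In NAD salvage, NAMPT joins nicotinamide to a phosphoribosyl group to make nicotinamide mononucleotide, the rate-limiting step, and NMNAT enzymes turn that into NAD. Sirtuins use NAD to remove acetyl and other acyl groups from proteins, which returns nicotinamide to the pathway. In mouse liver, CLOCK and BMAL1 bind E-box motifs at Nampt and drive its daily rhythm, while SIRT1 in turn acts on clock proteins. In mouse islets, nicotinamide mononucleotide made by NAMPT is known to support glucose-stimulated insulin secretion.

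Levels are log2 of the processed signal minus the array's 75th percentile. That percentile was a signal of 506 on the ZT4 array and 1229 to 2090 on the others, so a level of 0 means that brightness. From 66.1% (ZT4) to 84.4% (ZT0) of 43020 spots were well above background, and 0 were saturated. A single scan held the 4 arrays from ZT8 to ZT20, whereas ZT4 and ZT0 were each in a scan of their own, so for those 2 arrays scan and time of day cannot be told apart. Outlier spots numbered 1743 at ZT0 and 166 to 247 on each other array, but 0 of the 10 probes of these genes were flagged as outliers on any array. Each of these probes was a single spot. Probes printed as 10 spots had a median SD between spots of 0.05 to 0.07 log2 units for levels above 0, 0.05 to 0.08 between -3 and 0, and 0.19 to 0.26 under -3. These SDs cover the spot only, not the pool, the labelling or the hybridisation. The endocrine hormone genes Ins1, Ins2, Gcg and Sst were well above background on all 6 arrays, and so were the lymphocyte genes Cd3e and Cd79b, the macrophage gene Csf1r, the acinar gene Cpa1, the duct gene Krt19, the endothelial gene Pecam1 and the fibroblast gene Col1a1.

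None of the 8 genes passed limma's moderated F test for a 24 h cosine. After Benjamini-Hochberg adjustment over all genes 0 of 8 passed, against 0 of 24147 genes, or 0%, and at an unadjusted p under 0.05 the count was again 0 of 8, against 969 of all genes (4.01%). An exact permutation of the 6 arrays also gave 0 of 8 at an unadjusted p under 0.05. The median fitted amplitude, peak minus trough, was 0.84 log2 units over the 8 genes and 1.33 over all genes tested. What follows is therefore a description of single arrays.

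**Figure D1:**
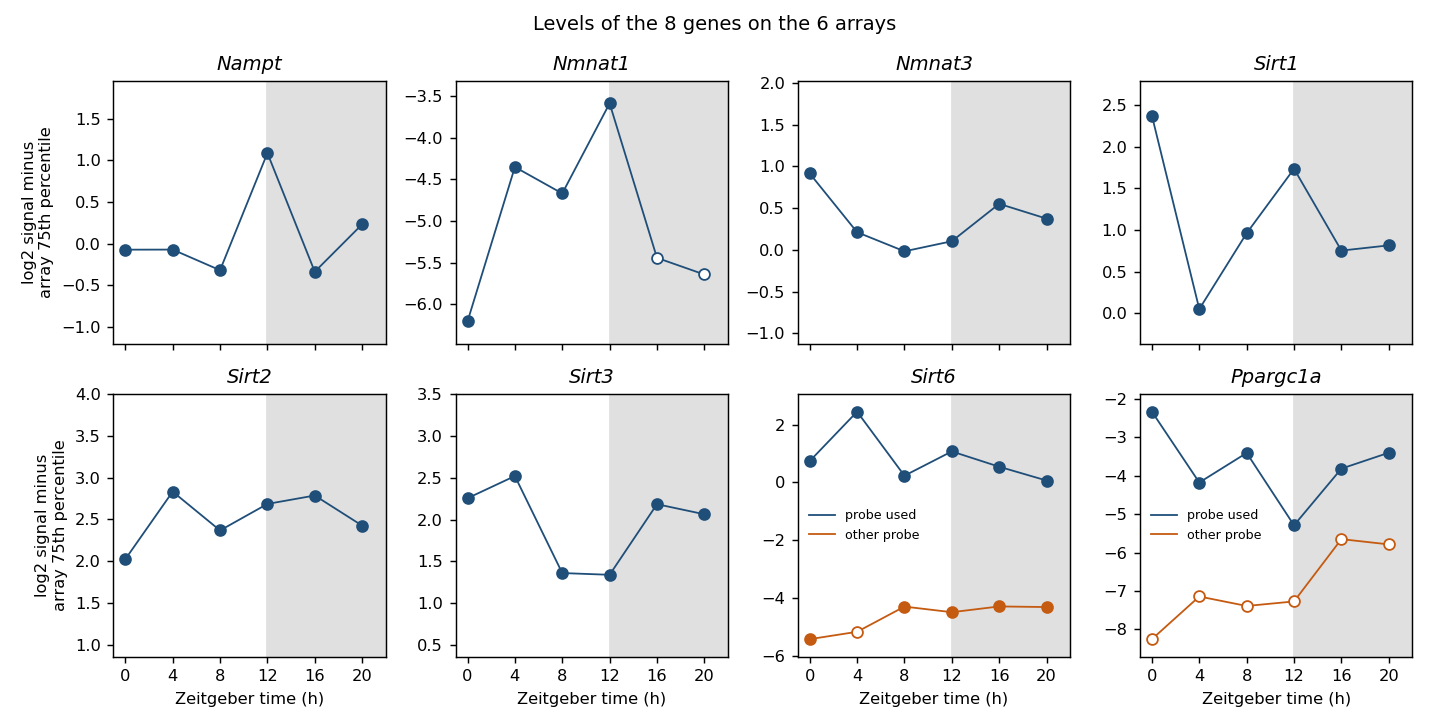
Level of each gene on the 6 arrays (log2 signal minus the array's 75th percentile, against zeitgeber time in h), 1 panel per gene with its own vertical scale of at least 3 log2 units and the dark phase in grey. Filled points are well above background and open points are not; orange lines are second probes. Nampt stood apart at ZT12 with a level of 1.09, Ppargc1a was lowest at ZT12 with -5.29, and Sirt2 stayed between 2.02 and 2.83.

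Nampt was highest as lights went off and nearly level at the other times. Its level (probe A_51_P387235, transcript NM_021524) was -0.07 at ZT0, -0.07 at ZT4 and -0.32 at ZT8 during the light, and 1.09 at ZT12, -0.34 at ZT16 and 0.23 at ZT20 from lights off onward. Only the ZT12 array stood clear of the rest, 2.23-fold above the median of the other 5. Without it, the highest and lowest arrays differed by 0.57 log2 units, in place of 1.42.

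Within the shared scan Nampt at ZT12 was 2.65-fold above ZT8, 2.68-fold above ZT16 and 1.81-fold above ZT20. ZT12 remained highest, by 1.02 to 1.16 log2 units over the median of the others, under every scaling, the normexp background correction and the authors' values. Such a difference was common on this array: ZT12 was at least 2-fold above the median of the other 5 for 17.6% of the 18950 genes that every array detected. The span of Nampt over the 6 arrays was larger than that of 24.8% of all genes tested. The fitted cosine peaked at ZT13.2 with an amplitude of 0.53 ± 0.81 (SE) log2 units, an unadjusted limma p of 0.816 and an adjusted p of 0.922.

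The ZT12 array also differed in cell markers, and in RNA pooled from whole islets fewer cells of a type and less RNA per cell cannot be told apart. Relative to each gene's mean over the 6 arrays, the median of 11 lymphocyte markers was 0.28 at ZT0, 2.51 at ZT4 and 0.79 at ZT8 during the light, and 2.23 at ZT12, -3.10 at ZT16 and -2.69 at ZT20 from lights off onward. The median of 9 macrophage markers was -0.45, 1.45, 0.27, 1.26, -1.41 and -1.18 at the same times. All 11 and all 9 markers were above their own mean at ZT12, and 10 of 11 and 7 of 9 were at ZT4. Summed over the list, relative to the 75th percentile signal, lymphocyte markers ran from 16.0 at ZT20 to 380 at ZT4, with 271 at ZT12. Macrophage markers ran from 15.4 at ZT20 to 300 at ZT4, with 171 at ZT12. With the lymphocyte marker mean as a covariate, the fitted Nampt amplitude was 1.99, against 0.53 without it, with the peak at ZT17.7 and an unadjusted limma p of 0.305. Of the 11 lymphocyte markers 8 had an unadjusted limma p under 0.05 for the cosine themselves, so this covariate and the cosine overlap. With the endocrine cell marker mean as the covariate, the Nampt amplitude was 0.85, with the peak at ZT18.5 and an unadjusted limma p of 0.589. The part of these cells in the ZT12 value of Nampt was not tested further.

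**Figure D2:**
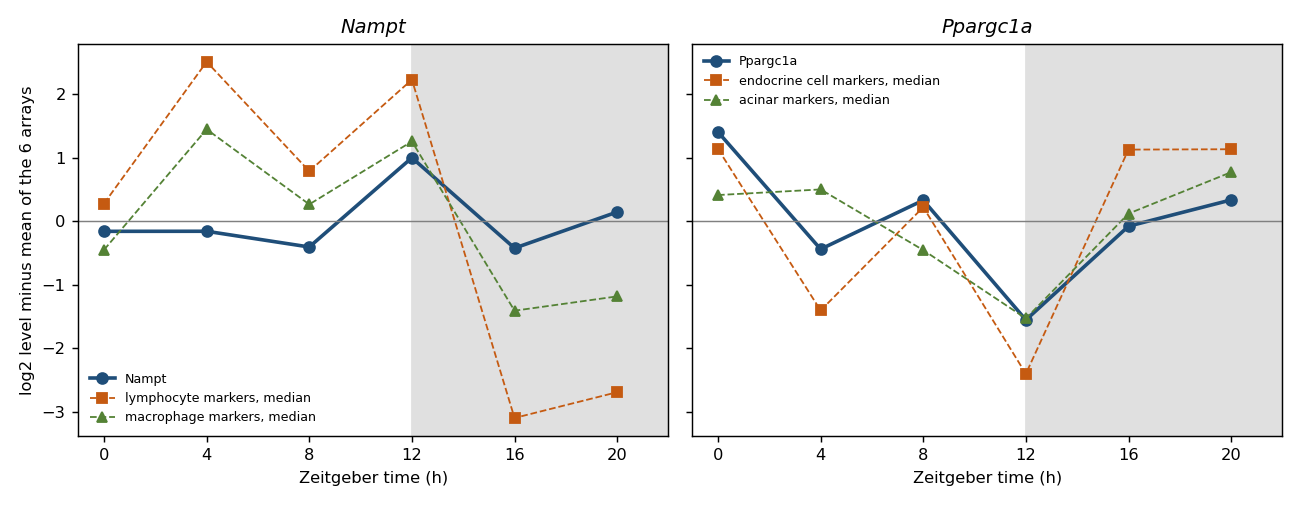
Nampt with the medians of lymphocyte and macrophage markers (left), and Ppargc1a with those of endocrine cell and acinar markers (right), each as log2 level minus the mean of the 6 arrays against zeitgeber time in h, dark phase in grey. Lymphocyte markers were high at ZT4 (2.51) and ZT12 (2.23), Nampt at ZT12 alone, and Ppargc1a and both sets of markers on the right were lowest at ZT12; at ZT4 the endocrine median was -1.40 and the acinar one 0.50.

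Of 18 listed core clock genes 16 were tested; 0 passed over all genes, and Nr1d1 and Dbp had an unadjusted limma p under 0.05. Dbp, a clock-controlled transcription factor, had levels of 3.82, 4.05, 3.83, 3.55, 1.99 and 1.16 from ZT0 to ZT20. Arntl, which encodes BMAL1, had -0.59, -1.22, -0.82, 0.34, 0.37 and 1.37. Nr1d1, the gene of REV-ERB alpha, a repressor, had -3.25, -3.25, -1.71, -3.43, -6.14 and -5.81, and its last 2 readings were not well above background. Per2, a repressor, had -1.56, -5.03, -0.40, -1.65, -0.01 and -0.10, without being well above background at ZT4. Among the 16, Bhlhe40, a repressor, was highest at ZT12 (0.83) and lowest at ZT16 (-0.65), as Nampt was, and the repressor genes Per1 (1.84) and Cry2 (1.40) were lowest at ZT12. The other 13 had neither their highest nor their lowest array at ZT12. Bhlhe40, Per1 and Cry2 were singled out after their values were seen. The share of all genes highest or lowest at ZT12 was not counted, so this is no result about the clock or Nampt. Clock was highest at ZT0 (1.21) and lowest at ZT4 (-2.81), and Cry1, another repressor, was highest at ZT20 (-2.06) and lowest at ZT0 (-4.08).

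The sequence before the start of Nampt and of Sirt1 is shown because CLOCK and BMAL1 act through E-boxes. Each line gives the 250 bases before the RefSeq start, 5′ to 3′ on the gene's own strand, from RefSeq on GRCm38.p6: chr12:32820085-32820334 on the + strand for Nampt and chr10:63339036-63339285 on the - strand for Sirt1. Capitals mark the E-box CACGTG or AGGTCA, the core letters of nuclear receptor sites.
Nampt: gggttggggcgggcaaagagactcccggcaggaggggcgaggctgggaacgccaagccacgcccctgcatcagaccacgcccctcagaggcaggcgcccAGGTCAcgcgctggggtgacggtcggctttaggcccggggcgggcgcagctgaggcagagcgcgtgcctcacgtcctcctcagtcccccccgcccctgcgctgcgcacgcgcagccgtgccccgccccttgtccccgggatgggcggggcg
Sirt1: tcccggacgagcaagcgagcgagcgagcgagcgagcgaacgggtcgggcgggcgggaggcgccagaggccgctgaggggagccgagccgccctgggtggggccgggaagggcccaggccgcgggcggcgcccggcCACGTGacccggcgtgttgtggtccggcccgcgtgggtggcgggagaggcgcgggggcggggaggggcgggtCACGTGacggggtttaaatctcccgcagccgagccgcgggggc
Both strands were searched. The Sirt1 window holds 2 copies of CACGTG, the first starting 115 and the second 43 bases before the start, and 1978 of 32851 windows of this length (6.02%) hold at least 1. The Nampt window holds AGGTCA once, as 14.0% of windows do, and no CACGTG. The letters CACGTT (3.85% of windows), TTANGTAA (2.06%), known as the D-box, and TGACGTCA (1.55%), the cAMP response element, were in 0 of the 11 windows of the 8 genes; CACGTG was in the Sirt1 window alone. The shorter TGACG, which is part of TGACGTCA, was in 4 of the 11 windows (Nampt, Ppargc1a, Sirt1 and Sirt3) and in 17.8% of all.

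Nmnat1, which encodes the nuclear enzyme, was dim: its level (probe A_55_P2146374, NM_133435) was -6.20 at ZT0, -4.35 at ZT4, -4.67 at ZT8 and -3.59 at ZT12. The later readings, -5.44 at ZT16 and -5.64 at ZT20, were not well above background. It was highest at ZT12, like Nampt. There it was 3.00-fold above the lowest detected signal of the ZT16 array and 3.68-fold above that of the ZT20 array. A spot not well above background can still lie above that lowest signal, so these folds set no lower limit. The fitted amplitude of 2.08 ± 0.83 (SE) at ZT9.67 was the largest of the 8 genes, with an unadjusted limma p of 0.105 and an adjusted p of 0.754. With normexp background correction the highest array was ZT4 and the unadjusted limma p was 0.450. Relative to the gene's mean, Nmnat1 then read 0.57 at ZT12, -0.006 at ZT16 and -0.33 at ZT20.

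Nmnat3, which encodes the mitochondrial enzyme, had levels of 0.92 at ZT0, 0.21 at ZT4 and -0.02 at ZT8 during the light, and 0.10 at ZT12, 0.55 at ZT16 and 0.37 at ZT20 from lights off onward (probe A_55_P2106525, NM_144533). The highest array was 1.91-fold above the lowest, a span wider than that of only 7.79% of all genes tested. Its fitted amplitude was 0.70 ± 0.69 (SE) at ZT21.5, with an unadjusted limma p of 0.616.

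Sirt1 encodes the nuclear deacetylase best known for acting on clock proteins and PGC-1 alpha. Its level was 2.37 at ZT0, 0.05 at ZT4 and 0.96 at ZT8 during the light, and 1.73 at ZT12, 0.75 at ZT16 and 0.82 at ZT20 from lights off onward (probe A_55_P2030428, NM_019812). It was high at ZT0, 2.94-fold above the median of the other 5 arrays, and low at ZT4, with a 4.99-fold span between them, and next highest at ZT12. The 2 extremes lay on the 2 arrays scanned apart. Within the shared scan ZT12 was highest and 1.97-fold above ZT16, and ZT8, ZT16 and ZT20 lay within 0.21 log2 units of each other. The cosine took up little of this, with an amplitude of 0.35 ± 1.02 (SE), an unadjusted limma p of 0.943 and a peak time that moved by over 6 h in 3 of 18 alternatives. Some of the 18 left the levels of Sirt1 unchanged and so could not move its peak. With the lymphocyte marker mean as a covariate the amplitude was 1.90, with an unadjusted limma p of 0.607. With the endocrine cell marker mean it was 0.44, with an unadjusted limma p of 0.947.

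Sirt2, whose product is mostly cytoplasmic and deacetylates tubulin, was the steadiest of the 8. Its level was 2.02 at ZT0, 2.83 at ZT4 and 2.37 at ZT8 during the light, and 2.69 at ZT12, 2.79 at ZT16 and 2.43 at ZT20 from lights off onward (probe A_52_P547447, NM_022432), a span of 1.75-fold that exceeded that of 4.90% of all genes tested. ZT0 was lowest under every scaling, whereas the highest array was ZT4 here and ZT16 with quantile normalization, with normexp, with the percentile over detected probes and in the authors' values. The fitted amplitude was 0.41 ± 0.71 (SE), with an unadjusted limma p of 0.850.

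Sirt3, the main mitochondrial deacetylase, was lower at ZT8 and ZT12 than at the other 4 times. Its level was 2.26 at ZT0, 2.52 at ZT4 and 1.36 at ZT8 during the light, and 1.34 at ZT12, 2.18 at ZT16 and 2.06 at ZT20 from lights off onward (probe A_55_P2075140, NM_022433). In the shared scan ZT16 was 1.80-fold and ZT20 1.65-fold above ZT12. ZT12 was lowest under every scaling, while the highest array moved to ZT16 with quantile normalization and in the authors' values. Its fitted amplitude was 0.98 ± 0.72 (SE) with a peak at ZT23.2 and an unadjusted limma p of 0.442. Among pairs of the 7 genes well above background on all 6 arrays, Sirt3 and Nmnat3 had the closest profiles, with a root mean square difference of 0.36 log2 units between levels centred on each gene's mean. The pairs of Sirt2 with each of them followed, at 0.51. This measure is small for any pair of steady genes. Sirt2, Nmnat3 and Sirt3 had the smallest SDs over the arrays, at 0.31, 0.34 and 0.49, so the closeness is no result about mitochondrial enzymes. The pairs ran up to 1.40, for Sirt6 and Ppargc1a.

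Sirt6, which encodes a chromatin-bound deacylase that acts on histones, gave different patterns with its 2 probes. The brighter probe (A_55_P2072468) had levels of 0.74 at ZT0, 2.44 at ZT4 and 0.23 at ZT8 during the light, and 1.07 at ZT12, 0.54 at ZT16 and 0.06 at ZT20 from lights off onward, so that ZT4 was 3.74-fold above the median of the other 5. The dimmer probe (A_55_P2185794) had -5.42, -5.17, -4.30, -4.49, -4.29 and -4.31, and ZT4 was not well above background. Both were designed to NM_181586, and ZT4 stood high on the brighter probe alone. At ZT4, 5 intestinal epithelium markers had a median of 5.92 above their means. The medians of lymphocyte (2.51), smooth muscle (1.64) and macrophage (1.45) markers were also highest at ZT4. The part of these cells in the Sirt6 value was not tested, apart from a fit with the lymphocyte marker mean as a covariate. The fitted amplitude was 1.25 ± 0.96 (SE) at ZT4.89 with the brighter probe (unadjusted limma p of 0.466), 0.45 with the mean of both probes and 0.31 without the ZT4 array. With the lymphocyte marker mean as a covariate it was 0.77, with the peak at ZT22.0 and an unadjusted limma p of 0.778. With the endocrine cell marker mean it was 1.16, with the peak at ZT1.24 and an unadjusted limma p of 0.427.

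Ppargc1a encodes PGC-1 alpha, a coactivator of mitochondrial genes that SIRT1 deacetylates. It had the widest span of the 8 in the main scaling, though not in every other one. Its level was -2.33 at ZT0, -4.17 at ZT4 and -3.40 at ZT8 during the light, and -5.29 at ZT12, -3.81 at ZT16 and -3.40 at ZT20 from lights off onward (probe A_51_P279038, NM_008904). ZT0 was highest and ZT12 lowest, 7.77-fold apart, a span wider than that of 72.6% of all genes tested. With normexp the span was 3.31-fold, below those of Sirt1 (4.94-fold), Sirt6 (4.66-fold) and Nmnat1 (3.43-fold). Nmnat1 also spanned more with quantile normalization (7.76-fold against 5.81-fold) and in the authors' values (7.59-fold against 5.81-fold). The ZT12 level lay near the lowest detected level of that array, -5.64. In the shared scan ZT12 was lowest too, with ZT20 3.70-fold and ZT16 2.78-fold above it. A second probe (A_55_P2011702) was not well above background on any array, so it gave no check of this pattern.

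The ZT12 value of Ppargc1a was 1.88 log2 units below the median of the other arrays, and 1.13 to 2.20 below under the other scalings, normexp and the authors' values. The ZT0 value was 1.48 above that median, but 0.79 with normexp. The fitted amplitude was 1.87 ± 0.92 (SE) at ZT23.6, with an unadjusted limma p of 0.199 and an adjusted p of 0.754. Endocrine cell markers were also lowest at ZT12. The median of 22 of them was 1.14 at ZT0, -1.40 at ZT4 and 0.22 at ZT8 during the light, and -2.40 at ZT12, 1.13 at ZT16 and 1.13 at ZT20 from lights off onward relative to each gene's mean, and 1 of the 22 was above its mean at ZT12. Their summed level relative to the 75th percentile signal ran from 557 at ZT12 to 2318 at ZT0. Their part in the Ppargc1a value was not tested beyond a fit with the endocrine marker mean as a covariate, in which the amplitude was 1.25 with an unadjusted limma p of 0.260. With the lymphocyte marker mean as the covariate, the Ppargc1a amplitude was 2.20 with an unadjusted limma p of 0.136.

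**Figure D3:**
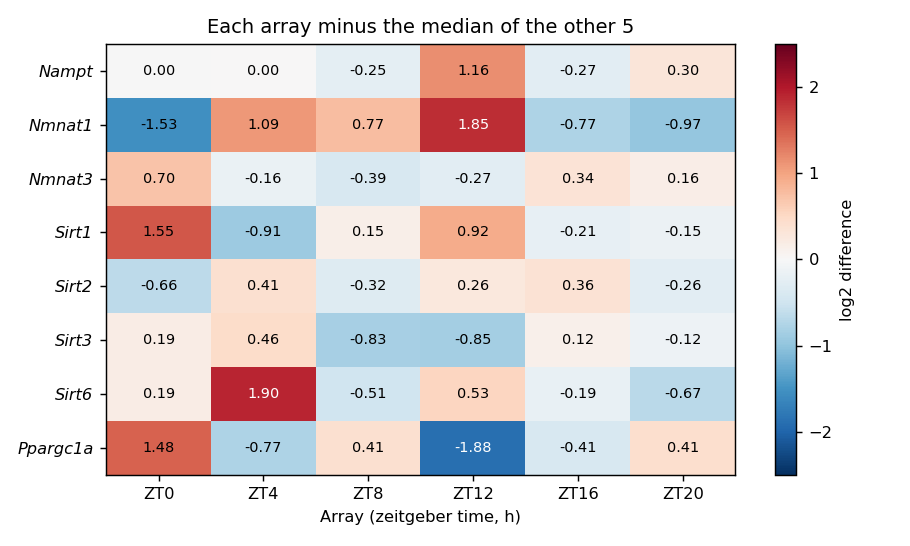
Log2 level of each gene on each array minus the median of the other 5 arrays, 1 row per gene and 1 column per zeitgeber time, on the probe used. Red is above that median and blue below; the values furthest from 0 were 1.90 (Sirt6, ZT4) and -1.88 (Ppargc1a, ZT12), while Nmnat1 at ZT16 and ZT20 was not well above background.

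The 7 genes well above background on every array were counted beside all 18950 such genes, at 2-fold from the median of the other 5 arrays. At ZT0, 2 of 7 were above (Sirt1 and Ppargc1a; 15.3% of all genes) and 0 below (18.5%). At ZT4, 1 was above (Sirt6; 23.9%) and 0 below (15.9%). At ZT8, 0 were above (6.37%) and 0 below (1.75%). At ZT12, 1 was above (Nampt; 17.6%) and 1 below (Ppargc1a; 18.1%). At ZT16, 0 were above (10.1%) and 0 below (12.3%), and at ZT20 0 were above (10.4%) and 0 below (11.9%). A highest array at least 2-fold above the lowest was found for 5 of the 7 and for 88.1% of all such genes, and the median span was 2.68-fold for the 7 and 3.79-fold for all. The share above at ZT0, 2 of 7 against 15.3%, was over the background, and the other shares lay under it. With only 7 genes the counts are too small to be a result about these genes.

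**Figure D4:**
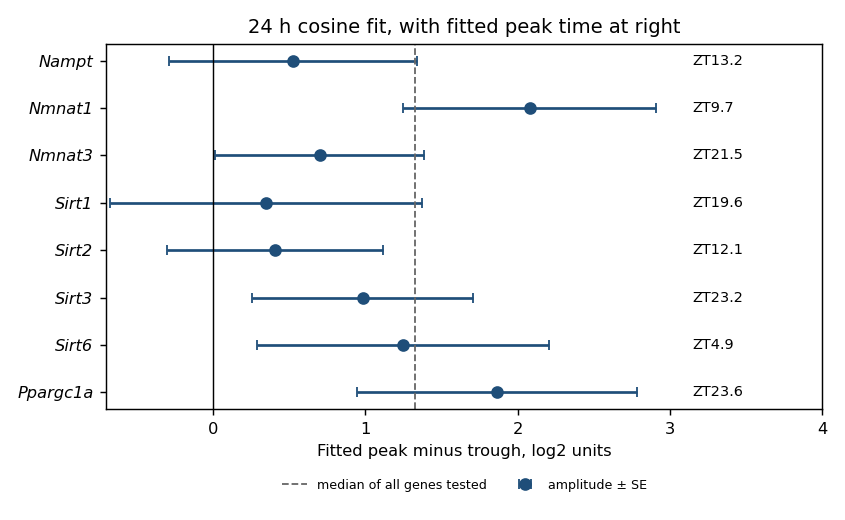
Fitted 24 h amplitude (peak minus trough, log2 units) of each gene, with bars for ± SE and the fitted peak time at the right; the dashed line is the median over all genes tested (1.33). Nmnat1 (2.08) and Ppargc1a (1.87) lay above that line, and 6 genes lay below it.

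Of 35 listed genes of NAD metabolism and sirtuins beyond the 8, 29 were tested; 0 passed over all genes and 1 had an unadjusted limma p under 0.05, against 4.01% of all genes tested. The median amplitude of the 29 was 1.49 log2 units, against 1.33 for all genes tested, and 15 fitted peaks fell in the light and 14 in the dark. The gene with the small p was Acmsd, whose enzyme diverts tryptophan breakdown away from NAD. It had levels of -5.17 at ZT0, -4.40 at ZT16 and -3.53 at ZT20, was not well above background on the other 3 arrays, and had a fitted amplitude of 3.35 ± 0.92 (SE) and an unadjusted limma p of 0.0242. Hepatocyte markers stood out on the ZT20 array, where Acmsd was highest. All 6 tested were above their own mean there, with a median of 5.76, against -2.00 to -0.61 on the other arrays. Their summed level relative to the 75th percentile signal was 270 at ZT20 and 3.01 to 27.2 elsewhere, and their part in the values of ZT20 was not tested.

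Among the other sirtuins, Sirt7, of the nucleolus, was highest at ZT4 (3.81) and ZT12 (3.73) and lowest at ZT20 (2.22). The mitochondrial Sirt4 ran from -1.22 at ZT4 to -0.03 at ZT16, and the mitochondrial Sirt5 from -0.72 at ZT4 to 0.06 at ZT0. Their amplitudes were 1.22 ± 0.83 for Sirt7, 0.78 ± 0.76 for Sirt4 and 0.71 ± 0.68 for Sirt5 (SE), with 0 of 3 at an unadjusted limma p under 0.05. Nmnat2, of the third NMNAT enzyme, did not meet the detection rule.

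Among genes for entry into NAD synthesis, Naprt, which uses nicotinic acid, was highest at ZT4 (2.28) and lowest at ZT16 (-0.83). Nadsyn1, of NAD synthetase, was also highest at ZT4 (0.83) and ran down to -1.11 at ZT0. Qprt, which uses quinolinic acid, was highest at ZT20 (-3.05), the array with the high hepatocyte markers, and lowest at ZT4 (-4.88). Nmrk1, a nicotinamide riboside kinase, was highest at ZT12 (-3.07). Of 15 tested genes in this group 1, Acmsd, reached an unadjusted limma p under 0.05, and after adjustment 0 passed.

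Among the genes whose products consume NAD or its precursor, Cd38, of an NAD glycohydrolase, was highest at ZT12 (1.09) and lowest at ZT16 (-0.78). Bst1, of a related enzyme of bone marrow stroma and myeloid cells, had levels of 0.80 at ZT0, 1.48 at ZT4 and 0.47 at ZT8 during the light, and 2.40 at ZT12, -2.96 at ZT16 and -2.72 at ZT20 from lights off onward. The Bst1 amplitude was 4.45 ± 1.53 (SE) with an unadjusted limma p of 0.062. Like the macrophage and lymphocyte medians, Bst1 was highest at ZT4 and ZT12 and lowest at ZT16 and ZT20. The median of stromal markers was also lowest at ZT16 (-1.56) and ZT20 (-1.46), though highest at ZT0. The part of these cells in the Bst1 values was not tested. Parp1, of a DNA damage sensor that consumes NAD, ran from -0.47 at ZT4 to 1.41 at ZT12, and Nnmt, which methylates nicotinamide, over 2.18-fold, from ZT4 up to ZT20. In this group 0 of 7 tested genes had an unadjusted limma p under 0.05. The NAD kinase gene Nadk was highest at ZT4 (3.67) and lowest at ZT16 (2.19), and 0 of 4 tested genes of its group had an unadjusted p under 0.05.

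Genes that work with PGC-1 alpha or that sirtuins act on in mitochondria also gave 0 passes, with 0 of 11 and 0 of 9 tested genes at an unadjusted limma p under 0.05. Their median amplitudes were 1.18 and 0.71 log2 units. Esrra, a nuclear receptor that PGC-1 alpha coactivates, was highest at ZT4 (3.00) and lowest at ZT20 (0.69), Nrf1, a nuclear respiratory factor, was highest at ZT0, and Tfam, which maintains mitochondrial DNA, was highest at ZT12, with spans of 3.96-fold and 3.35-fold. The SIRT3 targets Sod2, a superoxide dismutase, and Idh2, an isocitrate dehydrogenase, spanned 1.73-fold and 1.83-fold, and Idh2 was lowest at ZT12 (3.80), as Sirt3 was. Ppargc1b, which encodes the related coactivator PGC-1 beta, did not meet the detection rule.

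**Figure D5:**
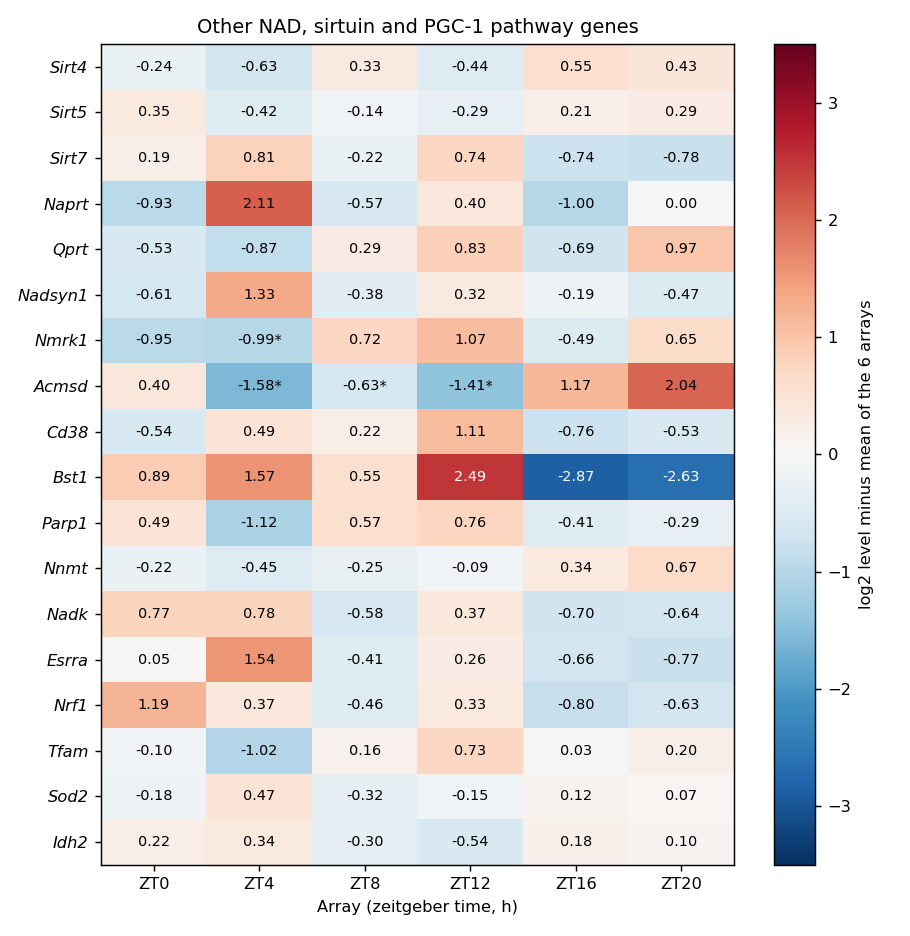
Log2 level minus the mean of the 6 arrays for 18 other genes of NAD metabolism, sirtuins and the PGC-1 pathway, 1 row per gene and 1 column per zeitgeber time; an asterisk marks a value not well above background. Bst1 had the widest span, from 2.49 at ZT12 to -2.87 at ZT16, and Naprt and Esrra stood high at ZT4 (2.11 and 1.54).

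The genes most like Nampt, Sirt1 and Ppargc1a were found by the root mean square difference of centred log2 levels over the 6 arrays, among named genes well above background on all 6 arrays with an SD of at least 0.5 times that of the gene. For Nampt, out of 13395 genes, they were Neb (0.13 log2 units), which encodes the muscle protein nebulin, Psma6 (0.16), of the proteasome core, and Bcap29 (0.19), of an endoplasmic reticulum protein. For Sirt1, out of 11733, they were Agk (0.13), a mitochondrial lipid kinase, and the transcription factor genes Zfp281 and Elf2 (both 0.14). For Ppargc1a, out of 10477, they were Gm14391 (0.16), the vomeronasal receptor gene Vmn1r28 (0.21) and 4933402N22Rik (0.23). The median difference over all candidates was 0.81 for Nampt, 1.11 for Sirt1 and 1.24 for Ppargc1a. With 6 values per gene and this many candidates, close matches of this size are a description of these arrays.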

How the data were processed

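Per the file headers and the submitters' processing notes, Agilent Feature Extraction 11.0.1.1 made the scanner files. The deposited signal is an intensity on a linear scale, from which the software had already taken the background and a spatial trend per array; arrays were not normalized to each other. The authors' value table held log2 values of 30170 probes with column medians of 8.62 to 8.63; each column correlated with the log2 processed signal of its array at r of 0.9987 to 0.9998 over probes, so the scale was log2 and genes were not centred. The steps behind it are not given in the sources used here. For the 8 genes its values, relative to each gene's mean, nearly equalled those with quantile normalization, such as 0.933 in both for Nampt at ZT12. The authors' values are therefore no check separate from quantile normalization.

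Control spots were dropped, spots of a probe averaged, and log2 signals reduced by each array's 75th percentile over probes. Probe accessions, without versions, were named through RefSeq on GRCm38.p6, which matched 69.1% of 39429 probes. A probe was tested if well above background on at least 3 of 6 arrays and never an outlier on all its spots; the probe with the highest mean stood for a gene. A 24 h cosine was fitted with limma 3.58.1 in R 4.3.3 and its 2 terms tested with the moderated F test (3 residual degrees of freedom), with Benjamini-Hochberg adjustment over 24147 genes and a threshold of 0.05. The fit was tested on simulated data. The named genes were the 8 members, a list of pathway, clock and marker genes fixed by function, pathway genes with an unadjusted p under 0.05, and the 3 closest profiles to Nampt, Sirt1 and Ppargc1a. Other genes of the lists, such as Bhlhe40 and Kmo, were named after their values were seen. Members, lists and tests were chosen with earlier results of these data known. Alternatives were other scalings, normexp background correction (offset 50, on the median spot signal), filters, probes, periods, covariates, scan as a block and leaving out each array. The number of arrays limits the precision.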

Additional observations from a re-analysis of the deposited data

How the results depend on the processing

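No paired analysis was possible because each time point had 1 array. For the 8 genes, for the pathway genes and for the whole array, 0 genes passed over all genes in each of the 20 alternatives. None of the 159 amplitudes of a member in these alternatives passed either. The smallest adjusted limma p of a member in any of them was 0.302, for Nmnat1 and for Ppargc1a without the ZT8 array, and 0 of 8 had an unadjusted p under 0.05 in each. An exact permutation cannot give a p below 0.0167, so after adjustment it could pass none unless a large share of all genes reached that floor. The alternatives were not all separate checks. The filters on dim and outlier spots and the exact permutation left the amplitude and peak time of each member they covered unchanged. The mean of all probes changed only those of Sirt6, and the authors' values nearly equalled quantile normalization. The number of all genes with an unadjusted p under 0.05, 969 in the fit reported, was 441 with scan as a block, 246 with a 20 h and 1593 with a 28 h cosine, 606 by exact permutation, and 347 to 4029 leaving out 1 array (347 without ZT20, 419 without ZT16, 2452 without ZT12, 4029 without ZT8). For pathway genes, 1 in the fit reported, it was 2 with quantile normalization, 2 in the authors' values, 2 with the mean of all probes, 3 with a 28 h cosine, and 0 to 6 leaving out 1 array. It was 0 with detection on all 6 arrays, with scan as a block, with lymphocyte or endocrine markers as a covariate and by exact permutation. Nampt peaked at ZT22.8 without the ZT12 array. Peak times moved by over 6 h in 3 of 18 alternatives for Sirt6 and Sirt1, 1 for Nampt and 0 for the other 5 genes, other periods left aside. Those counted include alternatives that left a member's levels unchanged and so could not move its peak. Of 88 member spans recomputed, 10 moved by over 1.5-fold. Quantile normalization moved the median centred level over genes from -0.005 to -0.099 at ZT0 and from 0.033 to 0.104 at ZT12. The causes of these changes were not tested.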

Other observations

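Among 8 tested genes of the kynurenine route, which makes NAD from tryptophan, Kmo, Kynu, Haao and Ido2 were lowest at ZT16, where Ido2 was not well above background. The others were lowest elsewhere: Ido1 at ZT8 (-8.17, not well above background), Afmid at ZT0 (-4.00), Qprt at ZT4 (-4.88) and Acmsd at ZT4 (-7.15, not well above background). The share of all genes lowest at ZT16 was not counted, so this is no result about the route. The genes named next, Parp3 and Acss1 included, were singled out after their values were seen. Kmo, a monooxygenase, had levels of 0.14 at ZT0, 0.08 at ZT4 and -0.13 at ZT8 during the light, and 1.30 at ZT12, -2.41 at ZT16 and -0.69 at ZT20 from lights off onward. Kynu, of kynureninase, had -2.91, -1.54, -2.96, -0.88, -5.03 and -3.12, and Haao, a dioxygenase, had 0.46, 3.70, 0.96, 2.54, -1.23 and 1.70 at the same times. The unadjusted limma p values of the 24 h cosine were 0.383, 0.335 and 0.330, so none passed. Parp3, a poly(ADP-ribose) polymerase gene, and Acss1, of a mitochondrial acetyl-CoA synthetase, were also lowest at ZT16, at -3.94 and -1.13, and had amplitudes of 3.54 ± 1.20 and 3.83 ± 1.28 (SE), with unadjusted limma p values of 0.0589 and 0.0554. Lymphocyte and macrophage markers were low on the same array, with medians of -3.10 and -1.41, and their part was not tested for these 5 genes.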
